A study of Homo sapiens with 12 samples.

Results

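The aldo-keto reductases were followed here across 2 human lung epithelial cell lines, through every probe that the platform annotation assigns to AKR1A1, AKR1B1, AKR1B10, AKR1B15, AKR1C1, AKR1C2, AKR1C3, AKR1C4, AKR7A2 or AKR7A3. The annotation gave 15 probes for 8 of these 10 symbols, out of 47320 probes on the array, of which 30112 carry 1 gene symbol (20045 symbols in all). No probe is assigned to AKR1A1 or AKR1B1 in the table used, so these genes are not analysed here. AKR1C2 has 6 of the 15 probes, AKR1C4 and AKR7A3 have 2 each, and AKR1B10, AKR1B15, AKR1C1, AKR1C3 and AKR7A2 have 1 each.

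Total RNA was read on 12 Illumina bead arrays of 1 chip, 2 arrays in each of 6 groups. The groups were A549 cells given medium alone, A549 cells given 0.25% poultry dust extract for 1 h, A549 cells given the same extract for 6 h, and BEAS-2B cells under the same 3 conditions. All cells had been kept without serum overnight before treatment, and the labels give no time for the medium-only controls. A549 was derived from a lung adenocarcinoma and is used as a model of alveolar epithelium, while BEAS-2B was derived from bronchial epithelium and immortalised with viral genes, so tumour origin, airway level and donor cannot be told apart in a comparison of these lines. The arrays of the chip are lettered A to F for A549 and G to L for BEAS-2B, so this order cannot be told apart from line either. A549 is also known to carry an inactivating KEAP1 mutation. That genotype was not read by the arrays, and its part in the values below was not tested. The labels number the 2 arrays of a group 1 and 2 without saying that they are separate cultures, so the p-values measure the spread between these arrays, which may be technical. Because the RNA came from whole cultures, fewer expressing cells and less RNA per cell cannot be told apart.

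Aldo-keto reductases are NADPH-dependent enzymes that reduce aldehydes and ketones to alcohols. AKR1B10 and AKR1B15 belong to the aldose reductase group, and AKR1B10 is known for reducing retinal and lipid-derived aldehydes. The AKR1C enzymes are hydroxysteroid dehydrogenases: AKR1C1 inactivates progesterone, AKR1C2 reduces dihydrotestosterone, AKR1C3 makes testosterone and prostaglandin F2-alpha, and AKR1C4 is known mainly from liver, where it acts in bile acid synthesis. AKR7A2 and AKR7A3 reduce succinic semialdehyde and the dialdehyde of aflatoxin. Several members are textbook targets of NRF2, the transcription factor encoded by NFE2L2, which KEAP1 marks for degradation and which binds antioxidant response elements together with small MAF proteins.

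The genes lie in clusters of near copies, which is why probes rather than genes were compared. In the RefSeq annotation AKR1C1, AKR1C2, AKR1C3 and AKR1C4 lie side by side on chromosome 10, with AKR1E2 before AKR1C1 and AKR1C8 between AKR1C3 and AKR1C4. AKR1B1, AKR1B10 and AKR1B15 are neighbours on chromosome 7, and AKR7A3 and AKR7A2 on chromosome 1. Promoter windows of 300 bases (250 before to 50 after a gene start, RefSeq, GRCh38.p14) were held for 8 of the 10 members. AKR1B10 and AKR1B15 had none in that table. AKR1C1 and AKR1C2 are shown first, because the genes are close copies and the AKR1C2 probes did not all read alike: the capitals mark the bases that differ between them, 4 substitutions and a stretch of 4 bases present in AKR1C1 alone. AKR1C1 is at chr10:4963165-4963464 on the plus strand and AKR1C2 at chr10:5003808-5004107 on the minus strand.
AKR1C1: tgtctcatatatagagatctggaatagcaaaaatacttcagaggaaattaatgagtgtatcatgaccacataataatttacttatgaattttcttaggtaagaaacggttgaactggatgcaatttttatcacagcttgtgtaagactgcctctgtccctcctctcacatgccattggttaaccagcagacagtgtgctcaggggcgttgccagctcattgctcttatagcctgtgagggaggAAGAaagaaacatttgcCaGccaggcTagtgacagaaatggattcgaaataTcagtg
AKR1C2: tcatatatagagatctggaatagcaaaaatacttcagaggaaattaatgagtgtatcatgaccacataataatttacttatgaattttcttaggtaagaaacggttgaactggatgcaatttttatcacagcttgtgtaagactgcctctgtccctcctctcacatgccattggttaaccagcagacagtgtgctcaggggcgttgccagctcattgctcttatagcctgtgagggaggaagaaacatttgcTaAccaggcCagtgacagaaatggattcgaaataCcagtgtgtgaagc
Over 292 aligned bases these windows shared 288, an identity of 98.6%. The AKR1C1 window shared 78.0% and 79.5% of aligned bases with the pair of AKR1C3 windows and 69.6% with that of AKR1C4.

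The next windows are shown for their motif content, with the matches in capitals. They are AKR1C3 (chr10:5048531-5048830, plus strand), AKR1C4 (chr10:5196587-5196886, plus strand) and AKR7A2 (chr1:19312095-19312394, minus strand).
AKR1C3: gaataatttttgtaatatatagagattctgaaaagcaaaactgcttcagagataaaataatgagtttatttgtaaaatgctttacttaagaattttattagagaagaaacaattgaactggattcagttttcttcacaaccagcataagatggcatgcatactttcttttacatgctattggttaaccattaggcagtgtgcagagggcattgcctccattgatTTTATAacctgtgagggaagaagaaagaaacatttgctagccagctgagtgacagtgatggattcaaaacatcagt
AKR1C4: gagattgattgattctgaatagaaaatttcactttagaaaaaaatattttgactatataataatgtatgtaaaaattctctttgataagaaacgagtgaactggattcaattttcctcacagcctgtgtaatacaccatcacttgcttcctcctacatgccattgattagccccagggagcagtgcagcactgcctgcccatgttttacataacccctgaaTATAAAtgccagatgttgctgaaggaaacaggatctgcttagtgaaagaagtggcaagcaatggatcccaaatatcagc
AKR7A2: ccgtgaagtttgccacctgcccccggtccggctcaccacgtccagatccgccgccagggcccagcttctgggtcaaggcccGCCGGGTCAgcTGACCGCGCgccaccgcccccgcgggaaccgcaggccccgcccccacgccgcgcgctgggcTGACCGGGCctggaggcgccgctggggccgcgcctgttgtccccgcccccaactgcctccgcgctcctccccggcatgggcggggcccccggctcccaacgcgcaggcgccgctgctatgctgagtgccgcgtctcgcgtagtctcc
The antioxidant response element core TGACNNNGC was searched on both strands and was present in 13.3% of all 35116 promoter windows. It had no match in any AKR1C window and 3 matches in the AKR7A2 window, which are its capitals. The AP-1 motif TGANTCA, which can share bases with that core, was present in 7.71% of all windows and in none of the members'. TATAAA, searched on both strands, was present in 11.5% of all windows. It matched once in the AKR1C4 window, 29 bases before the start. In the AKR1C3 window shown it matched once on the opposite strand only, where the gene strand reads TTTATA, 26 bases before the start. GC content was 41.0% and 41.3% in the AKR1C1 and AKR1C2 windows, 33.7% in the AKR1C3 window shown, 38.0% in that of AKR1C4 and 77.3% in that of AKR7A2. A motif match here describes letters in a short window and says nothing of binding.

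The arrays were alike in yield: 37.5% to 41.1% of probes were detected in A549 arrays and 37.7% to 39.9% in BEAS-2B arrays, at a detection p-value under 0.05. The epithelial markers EPCAM, CDH1, KRT8, KRT18 and KRT19 were detected on all 12 arrays, but some differed between lines, in both directions. EPCAM read 7.48 to 7.96 on the log2 scale in A549 and 10.38 to 10.98 in BEAS-2B, and KRT8 12.15 to 12.92 and 10.25 to 10.90. Of the mesenchymal markers, VIM and CDH2 were detected on all 12 arrays. LUM was detected on 6 A549 and 0 BEAS-2B arrays, and COL1A1 on 4 and 6. Of 5 alveolar type II markers, ABCA3 was detected on all 6 A549 arrays, SFTPC and SFTPA1 on no array, and SFTPB and NAPSA on 1 A549 array each, with SFTPB on 1 BEAS-2B array too. The basal airway keratin KRT5 was detected on 0 of 6 A549 arrays and on 6 of 6 BEAS-2B arrays. On the log2 scale the summed alveolar type II signal was 8.19 to 8.90 in A549 and 6.99 to 7.32 in BEAS-2B. It was higher in A549 through ABCA3, which read 7.40 to 8.56 there and 4.57 to 5.69 in BEAS-2B. The summed basal airway signal (KRT5 and KRT14) was 5.42 to 5.55 in A549 and 7.32 to 8.74 in BEAS-2B. Both sums move with every line difference below, and their part in it was not tested. Endothelial markers (3 of 3) and the leukocyte markers PTPRC and CD3E were not detected on any array, while CD14 and CD68 were detected on all 12.

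**Figure D1:**
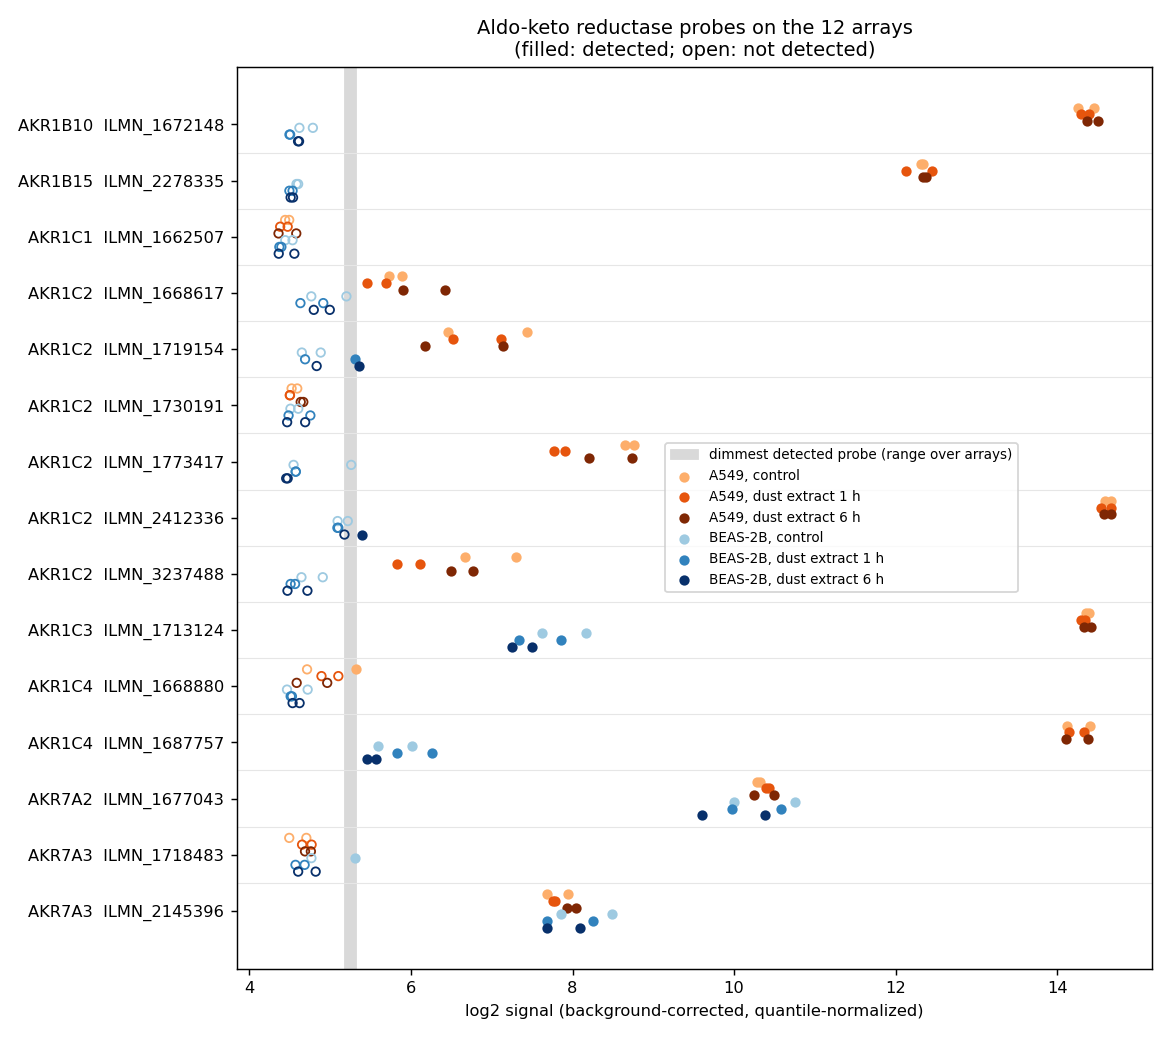
Background-corrected, quantile-normalized log2 signal of the 15 aldo-keto reductase probes on each of the 12 arrays, by line and condition (2 points a group); open symbols are arrays where the probe was not detected, and the grey band spans the dimmest detected probe of each array. The AKR1B10 and AKR1C3 probes and 1 probe each of AKR1C2 and AKR1C4 lie above 14 in all A549 arrays, while the AKR1C1 probe lies below the band on every array.

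The AKR1B pair was bright in A549 and undetected in BEAS-2B. The AKR1B10 probe read 29059 and 20355 signal units in A549 control arrays, 25892 and 20072 at 1 h of dust extract and 26269 and 18297 at 6 h. In BEAS-2B it read 70.2 and 80.2 in control arrays, 60.3 and 66.9 at 1 h and 67.1 and 70.3 at 6 h, none of them detected. Every A549 array thus lay above every BEAS-2B array. All line differences below were tested with limma on log2 values over the 24467 probes detected on at least 2 of the 12 arrays, with Benjamini-Hochberg adjustment over those probes. In control arrays the AKR1B10 difference, A549 minus BEAS-2B, was 9.66 on the log2 scale (SE 0.18, 95% interval 9.25 to 10.06, limma adjusted p = 3.43e-10). Since the probe was below detection in BEAS-2B, the fitted value is no measured fold. On the background-corrected scale the bound was at least 554-fold higher in A549 control arrays, and the correction sets much of that size: the ratio was 275-fold with quantile normalization alone and 328-fold between the mean deposited signals. The bounds given here hold on the background-corrected scale only. They set the A549 mean against the higher of the dimmest detected signal of each BEAS-2B array and the probe's own signal there.

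AKR1B15, whose product is a close relative of AKR1B10, followed the same pattern. Its probe read 6802 and 5004 signal units in A549 control arrays, 6630 and 4792 at 1 h and 6349 and 4407 at 6 h. In BEAS-2B the 6 arrays read between 62.7 and 69.9, all undetected. The groups did not overlap, and the control difference was 7.73 (SE 0.18, limma adjusted p = 1.45e-09), at least 136-fold on the background-corrected scale and 72.9-fold without the correction. No probe sequences were held, so whether the AKR1B15 and AKR1B10 probes also bind each other's transcripts was not tested.

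AKR1C3, the prostaglandin F and testosterone-forming member, was detected on all 12 arrays. It read 27650 and 22357 in A549 control arrays, 24166 and 20485 at 1 h and 23338 and 19845 at 6 h. In BEAS-2B it read 301 and 264 in control arrays, 215 and 229 at 1 h and 206 and 199 at 6 h. Both lines were above background, and the control difference was 6.48 (SE 0.24, 95% interval 5.95 to 7.01, limma adjusted p = 3.56e-08), an 89.2-fold higher signal of this probe in A549. Whether this single probe also binds other AKR1C transcripts was not tested, nor whether the scale is compressed at its A549 readings. Without background correction the same arrays gave 71.1-fold.

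The 6 AKR1C2 probes did not give 1 reading. ILMN_2412336 read 32899 and 27956 in A549 control arrays, 29355 and 26238 at 1 h and 27718 and 22861 at 6 h, against 91.6 and 91.5, 82.6 and 94.7, and 93.2 and 91.5 in BEAS-2B control, 1 h and 6 h arrays, where 1 of 6 was detected. Its control difference was 9.47 (SE 0.18, limma adjusted p = 3.43e-10), at least 668-fold on the background-corrected scale and 270-fold without the correction. The brightest probe of any kind read 25607 to 34881 on the A549 arrays, so this probe stood near the top of the scale, and the files hold no saturation mark. On the 3 A549 arrays numbered 2 its quantile-normalized value was the same, 14.66, which follows from its having the same rank on each.

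The next AKR1C2 probe by size of difference, ILMN_1773417, read 621 and 461 in A549 control arrays and was undetected in BEAS-2B, where it read 92.7 and 67.7 in control arrays. Its control difference was 3.80 (SE 0.26, limma adjusted p = 2.81e-06), at least 11.0-fold on the corrected scale and 5.84-fold without the correction. ILMN_3237488, the single AKR1C2 probe assigned to a different transcript of the gene, read 267 and 165 in A549 control arrays against 71.6 and 85.1 in BEAS-2B control arrays, and differed by 2.20 (SE 0.25, limma adjusted p = 0.000111), at least 3.33-fold on the corrected scale and 2.35-fold without it. Both probes separated the lines completely, at a far smaller size than ILMN_2412336.

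ILMN_1719154 differed by 2.18 in control arrays (SE 0.41, limma adjusted p = 0.00304), with A549 readings of 178 and 236 against BEAS-2B readings of 81.4 and 73.7, at least 3.26-fold on the corrected scale and 2.35-fold without it. ILMN_1668617 differed by 0.82 (SE 0.24, limma adjusted p = 0.0329), with A549 readings of 137 and 116 against BEAS-2B readings of 91.1 and 79.4, at least 1.48-fold on the corrected scale. ILMN_1668617 is the weakest of the passing probes: without background correction its control difference was 0.41, or 1.33-fold (limma adjusted p = 0.0764), and it passed in 13 of 22 alternative settings, with adjusted p-values between 0.0213 and 0.187. The last AKR1C2 probe, ILMN_1730191, read 65.2 to 78.8 in A549 and 58.6 to 74.2 in BEAS-2B and was detected on no array. Probes assigned to 1 transcript of AKR1C2 therefore ranged from undetected to among the brightest on the array in A549, and which of them reads AKR1C2 alone was not tested.

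AKR1C1 was not detected in either line. Its only probe, ILMN_1662507, read 68.3 and 62.0 in A549 control arrays, 58.2 and 62.9 at 1 h and 55.4 and 67.8 at 6 h. In BEAS-2B it read 58.4 and 66.8 in control arrays, 49.9 and 56.9 at 1 h and 48.7 and 66.9 at 6 h. No array detected it, with detection p-values of 0.666 or more in A549 and 0.696 or more in BEAS-2B, and the lines overlapped. This probe gives no level for AKR1C1 in either line, and it was outside the tested set.

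The AKR1C4 probes disagreed as far as those of AKR1C2. ILMN_1687757 read 28579 and 18244 in A549 control arrays, 24547 and 18230 at 1 h and 23792 and 15187 at 6 h. In BEAS-2B it read 115 and 108 in control arrays, 110 and 121 at 1 h and 94.5 and 103 at 6 h, detected on all 6. The control difference was 8.46 (SE 0.24, limma adjusted p = 4.94e-09), a fitted 353-fold on the background-corrected scale and 170-fold without the correction. In BEAS-2B this probe lay at 5.45 to 6.26 on the log2 scale. The dimmest detected probe of those arrays lay at 5.22 to 5.31, so the fold rests on signal near background. ILMN_1668880, assigned to the same transcript, read 68.1 to 108 in A549 and 60.1 to 77.3 in BEAS-2B and was detected on 1 of 12 arrays, an A549 control. Whether the bright probe ILMN_1687757 also binds other AKR1C transcripts was not tested, so its signal is not shown to be AKR1C4 alone. Of 4 hepatocyte markers, APOB was detected on no array, ALB on 5 of 6 arrays of each line, and TTR on 2 A549 arrays and 0 BEAS-2B arrays. ALB read 4.85 to 7.51 on the log2 scale in A549 and 5.27 to 6.04 in BEAS-2B. SERPINA1, a hepatocyte marker that airway epithelium also makes, was detected on 3 A549 arrays and 6 BEAS-2B arrays. It read 4.84 to 5.74 in A549 and 8.92 to 10.23 in BEAS-2B. The summed hepatocyte marker signal, 6.89 to 8.19 in A549 and 9.25 to 10.35 in BEAS-2B, was lower in A549 through SERPINA1.

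AKR7A2 and AKR7A3, the aflatoxin aldehyde reductases, did not pass the test between lines. The AKR7A2 probe read 1672 and 1342 in A549 control arrays against 917 and 1813 in BEAS-2B control arrays, a log2 difference of -0.07 (95% interval -0.78 to 0.64, limma adjusted p = 0.914). The AKR7A3 probe ILMN_2145396 read 333 and 307 in A549 control arrays against 254 and 433 in BEAS-2B control arrays, a difference of -0.36 (95% interval -0.96 to 0.24, limma adjusted p = 0.401). The lines overlapped for both genes, and the intervals leave room for differences of up to about the size of their bounds. The other AKR7A3 probe, ILMN_1718483, was detected on 1 of 12 arrays.

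Within BEAS-2B the AKR7A probes split by array number. AKR7A2 lay between 9.60 and 9.99 on the log2 scale on the arrays numbered 1 and between 10.38 and 10.76 on those numbered 2. AKR7A3 ILMN_2145396 lay between 7.68 and 7.85 on the arrays numbered 1 and between 8.09 and 8.49 on those numbered 2. Both separated by number in every condition, as did 26.8% of all tested probes in BEAS-2B. In A549 the tested probes AKR1B10, AKR1C2 ILMN_1719154, AKR1C2 ILMN_2412336 and AKR1C4 ILMN_1687757 separated by number, as did 22.3% of all tested probes. AKR1C2 ILMN_1719154 had the widest such gap, 6.17 to 6.53 against 7.11 to 7.44. The numbers also follow the lettered order of the arrays, A to C then D to F in A549 and G to I then J to L in BEAS-2B. What the numbers stand for was not tested.

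Across the family, 9 of 11 tested probes were higher in A549 control arrays and 0 were lower. Most of these 9 are probes of AKR1C2, so this is a count of probes and not of genes. Over all tested probes 22.4% passed in either direction and 11.5% were higher. The same 9 probes passed at 1 h, where 23.0% of all tested probes passed and 11.8% were higher, and at 6 h, where 21.4% passed and 10.8% were higher. Because 7 of those probes were detected on at most 2 of 6 BEAS-2B arrays, entry to the test through A549 favoured a difference: without any filter, 9 of 15 member probes passed in control arrays against 10.8% of all 47320 probes. The calls at 1 h were least secure for 2 AKR1C2 probes: ILMN_1668617 (0.80) passed in 10 of 21 alternative settings, and ILMN_1719154 (1.82) in 17 of 21. ILMN_1719154 missed the threshold without the A549 array numbered 2 at 1 h (1.53, limma adjusted p = 0.0745) and without the BEAS-2B array numbered 1 at 1 h (1.51, limma adjusted p = 0.068). At 6 h ILMN_1719154 passed in 17 of 21 and ILMN_1668617 in 20 of 21. The fitted differences at 1 h were 9.84 for AKR1B10, 9.51 for AKR1C2 ILMN_2412336, 8.20 for AKR1C4 ILMN_1687757, 7.77 for AKR1B15 and 6.72 for AKR1C3, and at 6 h the first 4 of these were 9.83, 9.33, 8.74 and 7.83. The AKR1C3 probe signal was 106-fold higher in A549 at 1 h and 128-fold higher at 6 h. AKR1B10 and AKR1C2 ILMN_2412336 were at background on most BEAS-2B arrays, so their differences have no order.

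**Figure D2:**
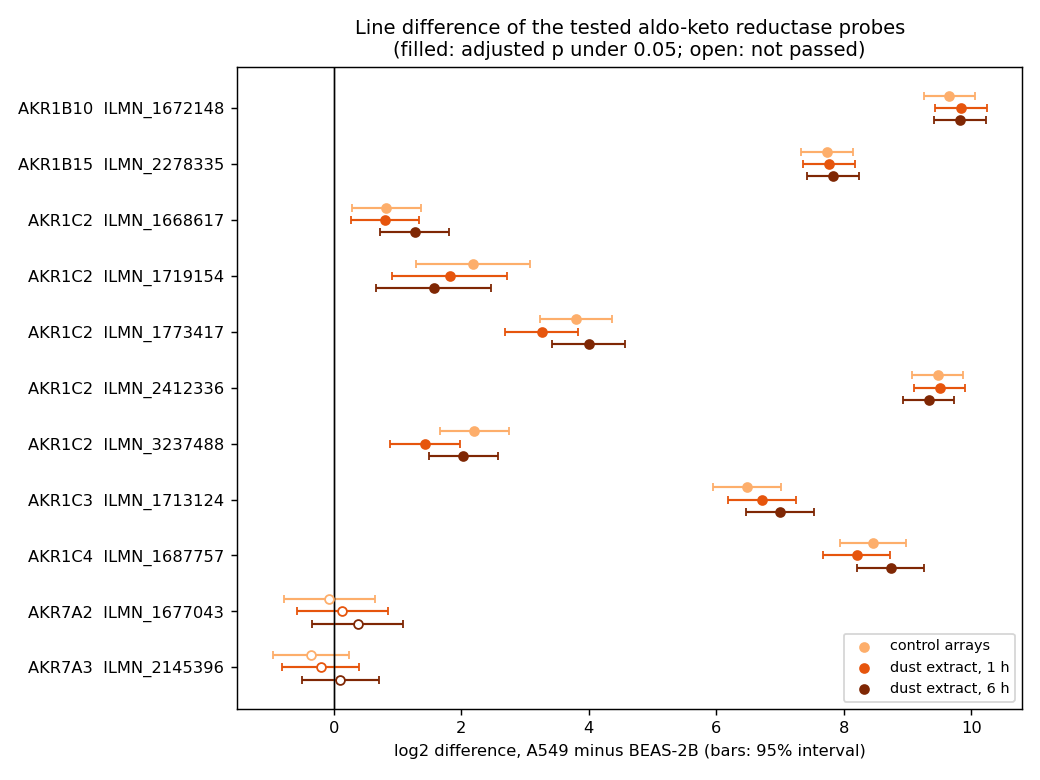
Log2 difference, A549 minus BEAS-2B, of the 11 tested aldo-keto reductase probes in control arrays and at 1 h and 6 h of dust extract (points with 95% intervals, 2 arrays a group in each line); filled points passed an adjusted p of 0.05. The AKR1B and AKR1C probes lie to the right of 0 in all 3 conditions, from 0.82 for AKR1C2 ILMN_1668617 to 9.66 for AKR1B10 in control arrays, and the AKR7A probes lie about 0.

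The second question of the design was whether dust extract moved the family. No member probe passed in either line at either time. The percentage of all tested probes that passed was 0.0858 in A549 at 1 h, 0.00409 in A549 at 6 h, 0.114 in BEAS-2B at 1 h and 0.0613 in BEAS-2B at 6 h (0.0531 higher and 0.00817 lower), so calls were rare everywhere. At an unadjusted p under 0.05 there were 2 member probes in A549 at 1 h, among 580 probes of all kinds, and 0 in each of the other 3 dust comparisons, among 928, 1046 and 1436.

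In A549 the bright probes gave changes near 0. Dust extract minus control was -0.02 at 1 h (95% interval -0.42 to 0.39) and 0.08 at 6 h (-0.33 to 0.48) for AKR1B10, and -0.06 at 1 h (-0.59 to 0.48) and 0.00 at 6 h (-0.53 to 0.54) for AKR1C3. For AKR1C4 ILMN_1687757 it was -0.02 at both times, within -0.54 to 0.50, and for AKR1B15 it was -0.04 at 1 h and 0.03 at 6 h, within -0.45 to 0.44. AKR1B10, AKR1C3 and AKR1C4 ILMN_1687757 read 15187 to 29059 in A549, beside 25607 to 34881 for the brightest probe of those arrays, and whether the scale is compressed there was not tested.

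The dimmer AKR1C2 probes gave the lowest p-values of the family at 1 h in A549. ILMN_1773417 read 354 and 292 signal units at 1 h of dust extract against 621 and 461 in control arrays, a log2 change of -0.87 (95% interval -1.44 to -0.29, unadjusted p = 0.00674, limma adjusted p = 1). ILMN_3237488 read 145 and 120 at 1 h against 267 and 165 in control arrays, a change of -1.01 (95% interval -1.56 to -0.47, unadjusted p = 0.00186, limma adjusted p = 0.606). Both missed the threshold. At 6 h the changes were -0.24 and -0.35, with intervals that include 0. The bright probe ILMN_2412336 changed by -0.03 at 1 h (95% interval -0.43 to 0.38). It stood near the top of the scale, and quantile normalization gave it the same value on every A549 array numbered 2. A change near 0 there cannot be set against those of the dimmer probes, and a difference between probes was not tested.

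In BEAS-2B the largest change was that of AKR1C3 at 6 h, where it read 206 and 199 against 301 and 264 in control arrays. That was -0.52 on the log2 scale (95% interval -1.06 to 0.01, unadjusted p = 0.0539, limma adjusted p = 0.869). AKR7A2 changed by -0.38 at 6 h (95% interval -1.10 to 0.33) and AKR7A3 by -0.29 (-0.89 to 0.31). Within array numbers 1 and 2 the AKR7A2 changes were -0.39 and -0.37 and the AKR7A3 changes -0.18 and -0.40, lower at 6 h on both. With array number as a block neither passed (limma adjusted p = 0.371 for AKR7A2 and 0.514 for AKR7A3). AKR1B10 and AKR1B15 were undetected under all conditions in BEAS-2B, so no change could be measured for either gene there.

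The lines' responses were also set against each other. The percentage of all tested probes that passed for A549 change minus BEAS-2B change was 0 at 1 h and 0.00817 at 6 h, and 0 member probes passed at either time by limma. At an unadjusted p under 0.05 there was 1 member probe at 1 h, AKR1C2 ILMN_3237488 (-0.77, unadjusted p = 0.0496, limma adjusted p = 1), and 0 at 6 h. AKR1C3 had the largest positive difference of change at 6 h, 0.53 (95% interval -0.23 to 1.28, limma adjusted p = 1).

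**Figure D3:**
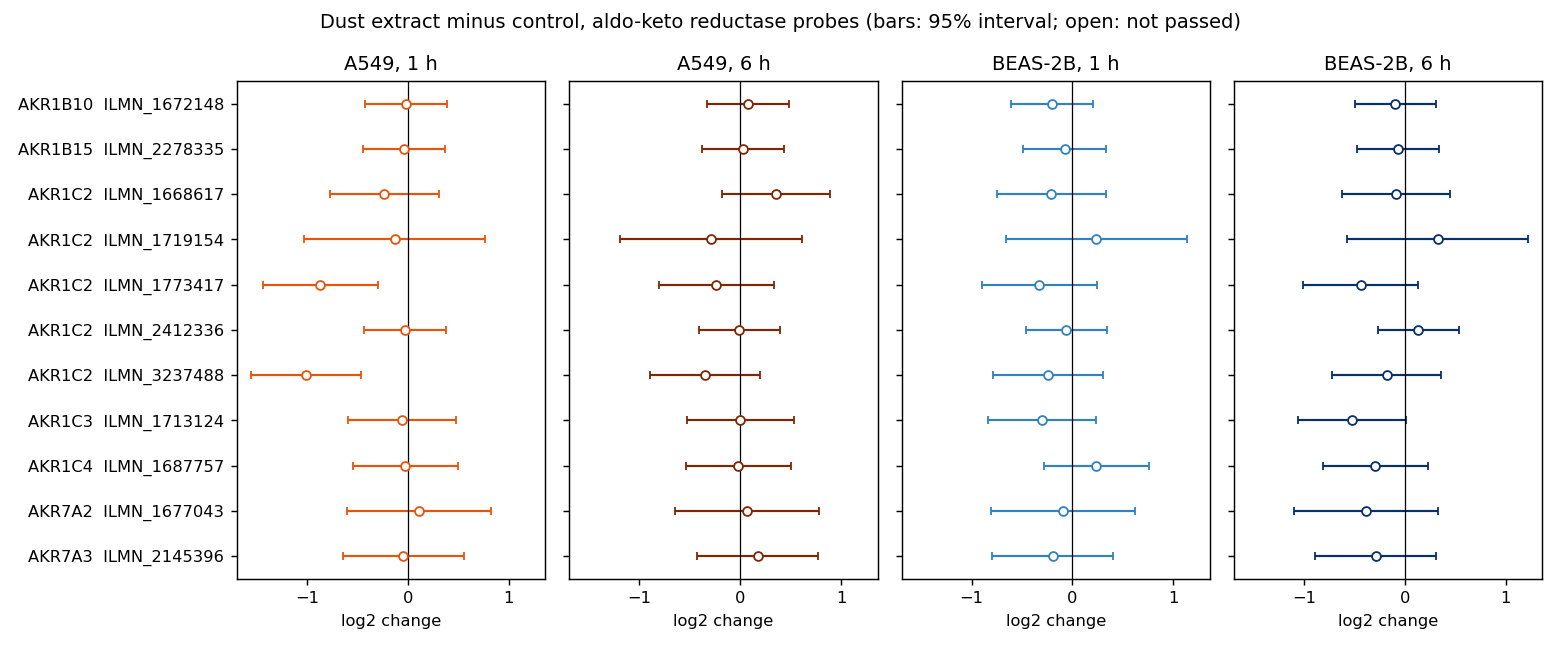
Log2 change, dust extract minus control, of the 11 tested aldo-keto reductase probes in A549 and BEAS-2B at 1 h and 6 h (points with 95% intervals, 2 arrays a group). All points are open, because no probe passed an adjusted p of 0.05, and AKR1C2 ILMN_3237488 (-1.01) and ILMN_1773417 (-0.87) at 1 h in A549 lie furthest from 0.

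Genes of the pathways around the aldo-keto reductases were read from 5 lists, each gene by its brightest tested probe. Of 27 tested NRF2 target genes, 23 were higher in A549 control arrays and 0 lower, with a median difference of 2.49 against -0.02 over all tested probes, of which 11.5% were higher. The 4 with the largest differences were GPX2, a glutathione peroxidase (8.53, limma adjusted p = 3.28e-08, at least 307-fold), ALDH3A1, an aldehyde dehydrogenase (7.26, limma adjusted p = 0.00026), ABCC2, an exporter of glutathione conjugates (6.18, limma adjusted p = 1.15e-08, at least 41.7-fold), and CYP4F11, a fatty acid hydroxylase (4.49, limma adjusted p = 7.52e-05). HMOX1, which degrades haem, differed by 3.35 (limma adjusted p = 8.76e-05) and NQO1, a quinone reductase, by 1.97 (limma adjusted p = 0.000196). CBR3, TXN, TRIM16L and UGT1A6 did not pass, with CBR3 at -0.93 (limma adjusted p = 0.166). The list was chosen with earlier results of these data known. GPX2 was detected on 2 BEAS-2B arrays and ABCC2 on 0, so their entry to the test through A549 favoured a difference.

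Of 6 tested NRF2 regulators and partners, 0 were higher and 1 was lower in A549 control arrays, with a median of 0.17, while 10.9% of all tested probes were lower. At 6 h 2 were higher and 1 was lower, beside 10.8% and 10.7% of all tested probes. NFE2L2 differed by -0.00 (limma adjusted p = 0.999) and KEAP1 by 0.33 (limma adjusted p = 0.263), mRNA levels that say nothing of protein or activity. The one that passed was MAFF, a small MAF partner of NRF2, at -1.92 (limma adjusted p = 0.00224), and its other 2 probes gave -1.40 (limma adjusted p = 0.0042) and 0.23 (limma adjusted p = 0.808).

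Of 13 tested carbonyl-reducing enzymes outside the family, 6 were higher in A549 control arrays and 0 lower, with a median of 0.98, beside the same 11.5% of all tested probes. The largest were NQO2 at 2.02, NQO1 at 1.97, CBR1 at 1.30 and DHRS4 at 1.17. NQO1, CBR1 and CBR3 are also on the list of NRF2 targets. Of 18 tested retinoid and steroid enzymes that share substrates with the family, 4 were higher and 1 lower, with a median of 0.30. That share is near the 22.4% of all tested probes that passed in either direction, so the count is no result about this list. ALDH1A1, which oxidises retinal to retinoic acid, had a fitted control difference of 9.49 (limma adjusted p = 1.87e-09), with its probe detected on 1 BEAS-2B control array and on none at 1 h or 6 h, where the bound was at least 606-fold and 613-fold. RDH10, which forms retinal from retinol, differed by 3.09, HSD17B11 by 1.96 and HSD17B12 by 0.60. ALDH1A3, another retinal dehydrogenase, was lower at -3.23 (limma adjusted p = 0.000405), the other way from ALDH1A1.

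Of the other aldo-keto reductase superfamily genes, 4 were tested and 1 passed in control arrays. That share is near the 22.4% of all tested probes that passed, so the count is no result about this list. AKR1E2, next to AKR1C1 on the chromosome, was higher in A549 by 1.24 (limma adjusted p = 0.0045), at least 1.54-fold, and did not pass at 6 h. Its probe was detected on 6 A549 and 0 BEAS-2B arrays, so entry to the test through A549 favoured a difference. AKR1D1, the steroid 5-beta-reductase, differed by 0.03 (limma adjusted p = 0.946), and the potassium channel subunits KCNAB1 and KCNAB2 by 0.51 and 0.46 without passing. In the dust comparisons 1 gene of the 5 lists passed: MAFF rose in A549 at 1 h by 2.24 (SE 0.34, limma adjusted p = 0.0499), with its other probes at 1.89 (limma adjusted p = 0.0435) and 1.55 (limma adjusted p = 1). In BEAS-2B at 1 h the same 3 probes gave 1.38 (limma adjusted p = 0.356), 0.81 and 0.39, and the difference between the lines' MAFF changes was 0.86 (SE 0.48, limma adjusted p = 1), so the rise is not shown to differ between lines. By limma, 0 of 27 NRF2 target genes passed in any dust comparison, and at an unadjusted p under 0.05 there were 0 and 2 in A549 at 1 h and 6 h and 1 at each time in BEAS-2B.

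**Figure D4:**
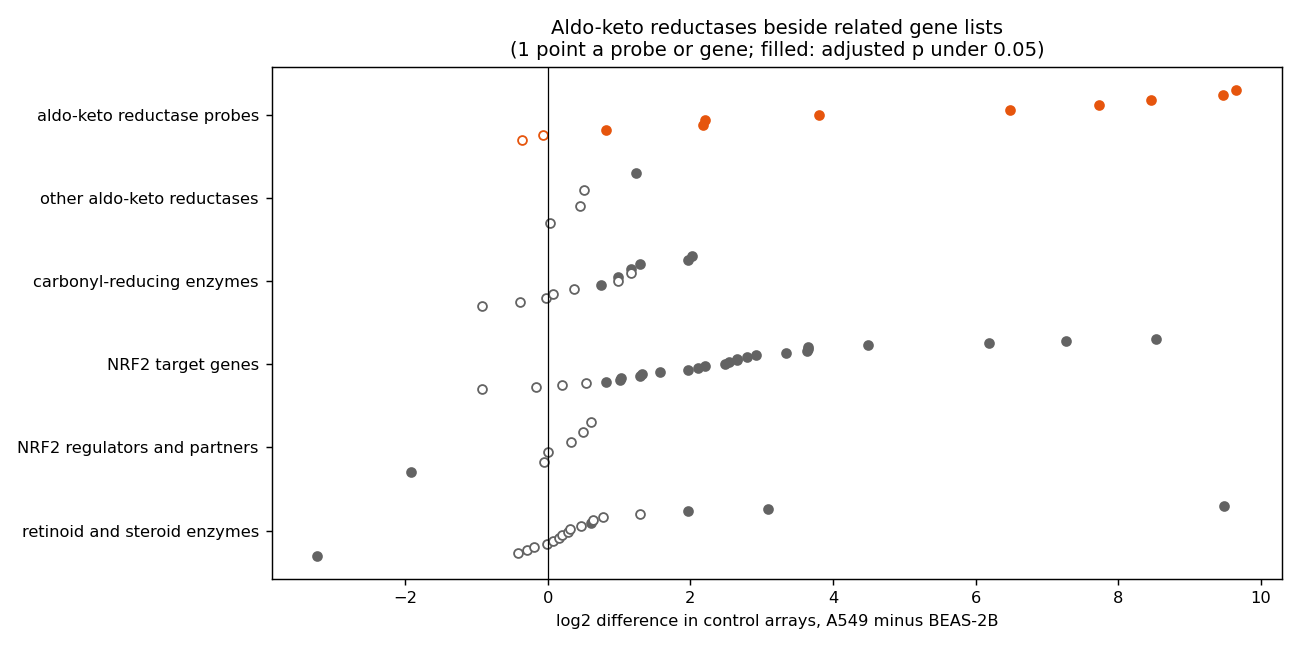
Log2 difference in control arrays, A549 minus BEAS-2B, for the 11 tested aldo-keto reductase probes and for the genes of 5 related lists (1 point a gene, its brightest probe); filled points passed an adjusted p of 0.05. NRF2 target genes lie mostly to the right of 0 with a median of 2.49, whereas among the tested regulators and partners only MAFF passed, at -1.92.

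The genes most like AKR1B10 and AKR1C3 over the 12 arrays were found among 13035 named genes by the mean squared difference of their values after each probe's own mean was removed. For AKR1B10 the nearest were ALDH1A1 (mean squared difference 0.0372), GPX2 (0.513), CA12 (0.75), GCNT3 (0.905) and S100A4 (1.27). Their A549 minus BEAS-2B differences over all arrays were 9.50, 8.44, 8.08, 7.90 and 7.66, beside 9.78 for AKR1B10, with ALDH1A1, GPX2, CA12 and GCNT3 detected on at most 2 of 6 BEAS-2B arrays. For AKR1C3 they were SPP1 (0.105), ABCC2 (0.153), MMP7 (0.189), COL5A2 (0.242) and PAPPA (0.279). With 2 lines and little change within each, this measure reflects the size of the line difference.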

How the data were processed

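Total RNA of A549 and BEAS-2B cells was measured on 12 bead arrays, and the authors deposited a table with, per probe and array, the mean bead signal as an intensity, its detection p-value, the standard error of the bead intensity and the number of beads, read by GenomeStudio 2011.1 per the submitters' processing notes. From the values, these intensities are not normalized between arrays. A second table deposited by the authors holds intensity values with nearly equal medians and equal maxima on all arrays; they rank each array's probes as the first table does, and the normalization behind them is not given in the sources used here. The annotation pairing probes with genes is that of the platform and can be old.

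Here, the signal was background-corrected (normexp, negative controls inferred from the detection p-values, offset 16), quantile-normalized and put on the log2 scale (neqc, limma 3.58.1, R 4.3.3), a step of this re-analysis; the deposited values are linear. Probes detected (p under 0.05) on at least 2 arrays were kept, 24467 of 47320, each as its own feature. One limma model with 6 group means (6 residual and 4.79 prior degrees of freedom) gave 9 comparisons, each adjusted by Benjamini-Hochberg over all tested probes, with a threshold of 0.05. The median standard error of a difference was 0.26 on the log2 scale, and the number of arrays limits the precision. Members and gene lists were chosen with earlier results of these data known. Named genes were every member probe, up to 4 passing genes a direction in each list, NFE2L2, KEAP1, HMOX1 and NQO1, and the 5 genes nearest to AKR1B10 and AKR1C3. The model was tested on simulated data with independent noise on each array. Same-numbered arrays of a line deviated together here, so that test does not show how the model behaves on these arrays. Alternatives were other normalization, the second table, other filters, 1 probe a gene, array number as a block, each line or the controls alone, and each array left out. Promoters were aligned with Biopython 1.88.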

Additional observations from a re-analysis of the deposited data

How the results depend on the processing

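Of the member probes, 9 passed in each comparison of A549 with BEAS-2B and 0 in each dust or line-by-dust comparison, and the dust and line-by-dust counts were 0 in every alternative run. Quantile normalization alone, and the authors' second table, gave 8 in control arrays and 8 at 1 h between lines, and the control arrays fitted alone gave 8. Leaving out all arrays of 1 number in 1 line, an alternative chosen after earlier results were seen, gave 7 to 9 between lines. With 1 probe a gene, 5 of 7 member probes passed in each of the 3 line comparisons, because only 1 AKR1C2 probe is then left. The probe kept was that with the highest mean over all arrays, for AKR1C2 and AKR1C4 the one bright in A549, which favoured a difference. The share of all probes passing in that setting is not given here, so the count is no result about the family. Leaving out each of the 12 arrays in turn gave 8 to 9 in control arrays, 7 to 9 at 1 h and 8 to 9 at 6 h, and 0 in each of the other comparisons. Of 2197 recomputed values of single member probes, 29 lost a call, 0 gained one and 0 reversed while called, and 90 changed sign without being called in either setting. The lost calls were those of AKR1C2 ILMN_1668617 and ILMN_1719154. ILMN_1668617 lost it with quantile normalization alone at 0.41 in control arrays and 0.44 at 1 h (limma adjusted p = 0.0764 and 0.0587), and without either A549 control array at 0.74 and 0.90 or the BEAS-2B control array numbered 2 at 0.61. At 1 h ILMN_1668617 lost it without any 1 of the 4 arrays at 1 h (0.66 to 0.94) or either A549 control array (limma adjusted p = 0.0506). ILMN_1719154 lost it at 1 h without the A549 array numbered 2 at 1.53 or the BEAS-2B array numbered 1 at 1.51, and at 6 h without the A549 array numbered 2 at 1.08 or the BEAS-2B array numbered 1 at 1.31. The replicate block, array number as a block within each line, left the member counts at 9, 9, 9 and 0. With it AKR1C2 ILMN_3237488 at 1 h in A549 had a limma adjusted p of 0.0749, the lowest over its 22 alternatives (highest 1), and ILMN_1773417 one of 0.295. Same-numbered arrays deviated together within A549 (correlations 0.402 to 0.467) and within BEAS-2B (0.533 to 0.649) but not across lines (-0.0499 to 0.0458). The main model takes the arrays of a line as independent, which they were not. The block raised the count over all probes to 8641 in control arrays, 8806 at 1 h and 8452 at 6 h between lines, against 5472, 5626 and 5242. For dust it gave 82 and 73 in A549 at 1 h and 6 h against 21 and 1, and 128 and 143 in BEAS-2B against 28 and 15. For the line-by-dust comparisons it gave 9 and 26 against 0 and 2. Between lines the block takes out the spread between array numbers, which is the replication those comparisons have. Its counts between lines, those of the members included, are therefore no added support. With the block 1 NRF2 target gene was lower and 1 NRF2 regulator higher in A549 control arrays. Leaving out 1 array took the all-probe counts down to 3274, 3332 and 3245 between lines, to 3 and 0 for dust in A549 and to 10 and 5 in BEAS-2B. Without a filter, under a stricter one and with A549 fitted alone, dust in A549 at 1 h gave 3, 9 and 8 probes, and with BEAS-2B fitted alone dust there gave 1 and 0. Probes near background, such as AKR1C1, carry no level at this signal.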

Other observations

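Pseudogenes of the family were read by 4 probes. Both AKR1C6P probes and AKR7A2P1 ILMN_1769563 were detected on no array, with AKR1C6P signals between 69.4 and 93.1 in A549 and between 58.2 and 81.5 in BEAS-2B, and AKR7A2P1 ILMN_2084562 was detected on 1 array of each line. The probes of AKR1D1 disagreed as those of AKR1C2 and AKR1C4 did: ILMN_2157277 read 12523 to 18426 in A549 and 8426 to 16365 in BEAS-2B, while ILMN_1692661 was detected on no array.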
